A study of Mus musculus with 3 samples.

Results

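Transcript levels of Wnt ligands, of their Frizzled (Fzd) receptors and of the secreted antagonists of the Sfrp and Dkk families were read from RNA-seq of wounded mouse fibroblasts. Members were taken by gene name, and 37 of the 43472 rows of the deposited table matched, namely 19 Wnt, 10 Fzd, 4 Sfrp and 4 Dkk genes. The cells were primary fibroblasts isolated by collagenase from tail tips of C57BL/6 mice and grown in serum, in which a scratch across the culture served as the wound. All 3 libraries had received the soluble micrograft (MG), a cell-free extract of mouse skin, and PD0325901 (1 μM in the study's methods) for 5 h. PD0325901 blocks MEK, the kinase that activates ERK. The labels number them replicates 1, 2 and 3 of this 1 condition, and the sources used here do not say which mice or days they came from. The scratch, the MG and the inhibitor are shared by all libraries, and cells without MG or without the inhibitor were not analysed here. Therefore no effect of MG or of MEK inhibition was computed, and each comparison is between replicate libraries.

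Wnt proteins are secreted lipid-modified ligands that bind Frizzled receptors, a family of transmembrane receptors. With the co-receptors LRP5 and LRP6, they stabilize β-catenin, which then acts with TCF/LEF factors on target genes. Other ligands, of which Wnt5a is the best known, signal through Frizzled together with ROR or RYK proteins and affect cell shape and movement. Secreted Frizzled-related proteins (Sfrp) bind Wnt ligands outside the cell, whereas the Dickkopf protein Dkk1 blocks the LRP co-receptors. In skin, Wnt signalling takes part in hair follicle formation and in the repair of wounds.

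Read counts recovered from the normalized counts, which are read counts divided by 1 size factor per library, summed to between 17244505 and 27037783 per library, and the 37 members held between 0.0794% and 0.103% of them. A count of 0 allows up to 3 reads, equal to 2.61, 2.11 and 3.56 normalized counts in replicates 1, 2 and 3. These floors and the tests below cover counting error only, since the reads carried no molecular identifiers. All 8 fibroblast markers were detected, with a summed level of 344400 to 509707 normalized counts. Of the keratinocyte markers, Krt5, Krt14, Krt15 and Krt1 had at most 2.37 normalized counts in any library, and Trp63 had 6.08, 3.52 and 10.7. Krt10 carried most of the keratinocyte list's sum of 43.0 to 87.7. Summed levels ranged from 55.7 to 243.8 for the endothelial list and from 71.2 to 664 for the leukocyte list. The melanocyte list summed to 5.64 to 20.15 and the Schwann cell list to 36.7 to 82.5. Of the leukocyte markers, Lyz2 (123, 62.7 and 601 normalized counts), Laptm5, Tyrobp and Cd52 were highest in replicate 3, and Ptprc had at most 1.74. The skeletal muscle list summed to 2641 to 8494, almost all from Acta1 and Des, while Myod1 had no reads. Acta1 (2429, 7286 and 5586 normalized counts) and Des (212, 1208 and 77.0) were highest in replicate 2, and Myog and Ckm had at most 1.19. Replicate 2 stood apart from the other libraries in 1275 of 13154 genes, against 502 genes for replicate 1 and 390 for replicate 3. Thy1 had 2031, 15760 and 1652 normalized counts and Lum 5073, 289 and 1164, so replicate 2 was the highest library for the former fibroblast marker and the lowest for the latter. The tendon and cartilage list summed to 17208, 1059.7 and 5557 normalized counts, with 3 of its 6 genes, Col2a1, Scx and Comp, carrying most of the sum.

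Of the 37 members, 16 were detected, meaning that each of the 3 libraries reached 10 normalized counts. This is 43.2% of the members, beside 28.1% of all rows and 54% of the 20703 rows of protein-coding genes, the class to which Wnt, Fzd, Sfrp and Dkk genes belong. By family, detection reached 6 of 19 Wnt genes, 6 of 10 Fzd genes, 2 of 4 Sfrp genes and 2 of 4 Dkk genes. Another 8 members, Wnt2, Wnt2b, Wnt7b, Wnt10a, Wnt16, Fzd4, Fzd6 and Fzd9, had a mean of at least 10 but were below this level in 1 or more libraries. The other 13 members stayed under 10 normalized counts throughout. Among them, Wnt3, Wnt3a, Wnt7a, Wnt8b, Wnt9b, Sfrp5 and Dkk4 had no reads in any library, and Wnt1, Wnt6, Wnt8a, Fzd10, Sfrp4 and Dkk1 had between 0 and 6 reads per library. Such genes were not detectable at this depth, and in these bulk samples fewer cells of a type and less RNA per cell cannot be told apart.

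**Figure D1:**
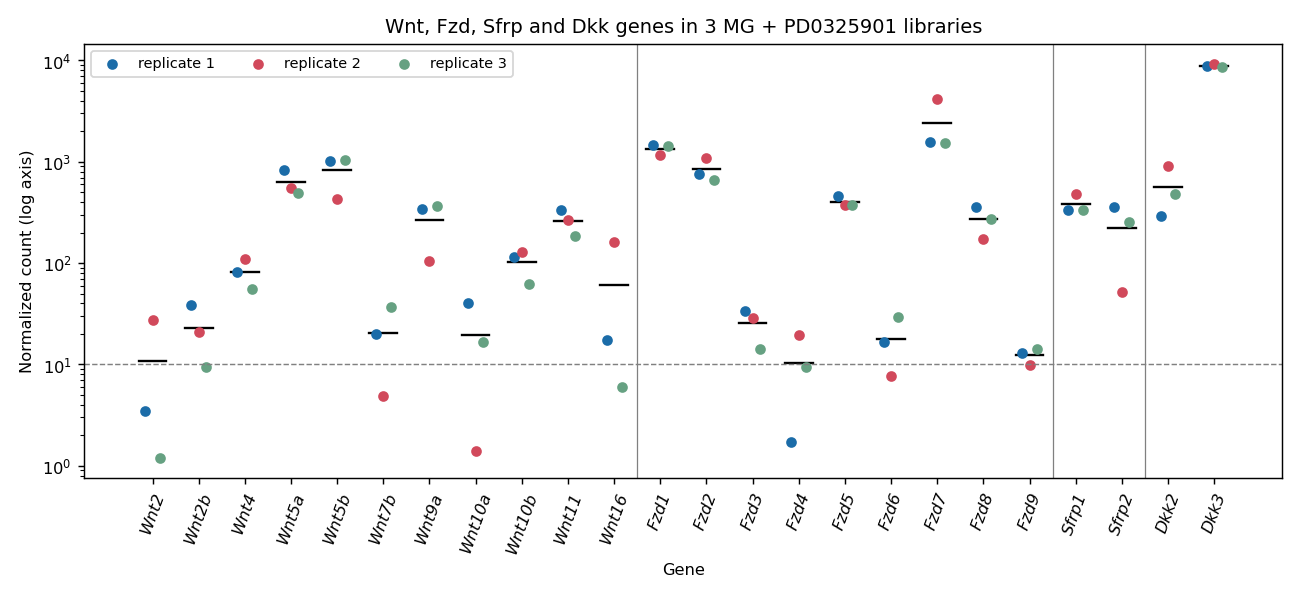
Normalized counts (vertical log axis) of the 24 members with a mean of at least 10 in the MG + PD0325901 libraries. Each point is 1 replicate, each black bar the mean of 3 replicates, and the dashed line marks 10 normalized counts. Dkk3 was the highest member, with its 3 points close together near 8902, while the points of Wnt10a and Wnt16 spread from 1.41 to 40.8 and from 5.93 to 160.7.

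In all, 6 Wnt genes were detected, and Wnt5b was the most abundant ligand transcript. Wnt5b lies on the minus strand of chromosome 6 (119432531 to 119544347 in GRCm38, the build of all positions given). Replicates 1, 2 and 3 held 1029.9, 432 and 1043 normalized counts of it. Its paralog Wnt5a (chromosome 14, 28504750 to 28527448), a ligand tied to cell movement and polarity, had 824, 557 and 494 normalized counts. Thus the libraries ranked differently for the 2 paralogs, Wnt5b being lowest in replicate 2 and Wnt5a highest in replicate 1. Wnt9a had 339.5, 105.7 and 363 normalized counts, and replicate 2 lay far below the others. Wnt11, like Wnt5a usually placed among the β-catenin-independent ligands, had 333, 265 and 184 normalized counts, averaging 260.4 ± 74.5 (SD, n = 3). Wnt10b, a ligand known for blocking fat cell formation, had 115.5, 128.2 and 61.6 normalized counts. Wnt4 had 81.6, 109.2 and 55.7 normalized counts, and like Wnt10b it was lowest in replicate 3 and highest in replicate 2.

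Levels of different genes were compared as normalized counts per kb of exonic length, because longer transcripts collect more reads. On this scale Wnt5b had 315 ± 132 (SD, n = 3), and its values of 388, 163 and 393 per kb lay above the range of every other Wnt gene. Wnt9a with 80.9 ± 42.7, Wnt5a with 79.9 ± 22.4 and Wnt11 with 62.9 ± 18.02 per kb followed (SD, n = 3). Their ranges over the 3 libraries overlapped, but Wnt5a was above Wnt11 in each of the 3, whereas Wnt9a was above Wnt5a in 1. Wnt11 lay above Wnt10b in every library without overlap, whereas Wnt10b, with 29.9 ± 10.4 per kb, and Wnt4, with 19.6 ± 6.38 per kb, overlapped (SD, n = 3), although Wnt10b was above Wnt4 in each of the 3. Summed over the family, Wnt transcripts reached 767, 450.2 and 661 normalized counts per kb in replicates 1, 2 and 3. Wnt5b alone made up 50.6%, 36.2% and 59.5% of this sum. Wnt5a, Wnt5b and Wnt11 together held 74.8%, 66.2% and 75.7%, a set put together after the values had been seen.

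The 5 Wnt genes near the detection limit had a mean of at least 10 but fell below 10 in 1 or more libraries. A wide spread between replicates is therefore built into this group, which limits the calls made below for Wnt2, Wnt7b, Wnt10a and Wnt16. Wnt16 (chromosome 6, 22288227 to 22298522) had 17.4, 160.7 and 5.93 normalized counts, resting on 20, 228 and 5 reads. Wnt2 had 3.47, 27.5 and 1.19 normalized counts, or 4, 39 and 1 reads, and its mean reached 10 only through replicate 2. Both ligands were thus highest in replicate 2, and by construction of the minimum Wnt2 could be tested only because of that library. Wnt10a, a ligand needed for skin appendages and teeth, went the other way, with 40.8, 1.41 and 16.6 normalized counts. Wnt7b had 19.97, 4.93 and 36.7 normalized counts and Wnt2b 38.2, 21.1 and 9.48. The counting error of the lowest library was 37.8% for Wnt7b, 35.4% for Wnt2b and 70.7% for Wnt10a.

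The Frizzled receptors were dominated by Fzd7, Fzd1 and Fzd2, which form 1 subfamily by protein sequence. Fzd7 (chromosome 1, 59482424 to 59486955, plus strand) had 1561, 4129.7 and 1533 normalized counts, in the same order of libraries. Fzd1 had 1455, 1168 and 1421 normalized counts, averaging 1348 ± 157 (SD, n = 3), and Fzd2 had 762, 1098 and 664. Replicate 2 was therefore the highest library for Fzd7 and Fzd2 but the lowest for Fzd1. In replicates 1 and 3 Fzd1 and Fzd7 were nearly level per kb, with 347 and 344 in replicate 1 and 339 and 338 in replicate 3, and in replicate 2 they had 278 and 911. The 3 genes together held 86.6%, 94.0% and 88.1% of the Fzd sum, which was 1039, 1584 and 973 normalized counts per kb.

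Fzd5 and Fzd8, a pair of receptors related to each other, came next. Fzd5 had 461, 376 and 378 normalized counts, the smallest relative spread of the detected Fzd genes together with Fzd1, with an SD of 0.17 for both on the log2 scale. Fzd8 had 360.4, 174.7 and 273.8 normalized counts, lowest in replicate 2. Per kb, Fzd2 lay above Fzd5 and Fzd8 above Fzd3 without overlap, whereas the ranges of Fzd5 and Fzd8 overlapped, with Fzd5 above Fzd8 in each of the 3 libraries. Ranges also overlapped for Fzd7 with Fzd1 and Fzd1 with Fzd2. Fzd7 and Fzd2 did not overlap, with a lowest value of 338 for Fzd7 and a highest of 299.7 for Fzd2. Fzd3, a receptor known for planar polarity and axon guidance, had 33.9, 28.9 and 14.2 normalized counts. Fzd6, Fzd9 and Fzd4 had means of 17.96, 12.4 and 10.3 normalized counts, and Fzd10 had a single read. Thus all 10 Fzd genes had reads, and Fzd7, Fzd1, Fzd2, Fzd5 and Fzd8 had means above 100 normalized counts.

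**Figure D2:**
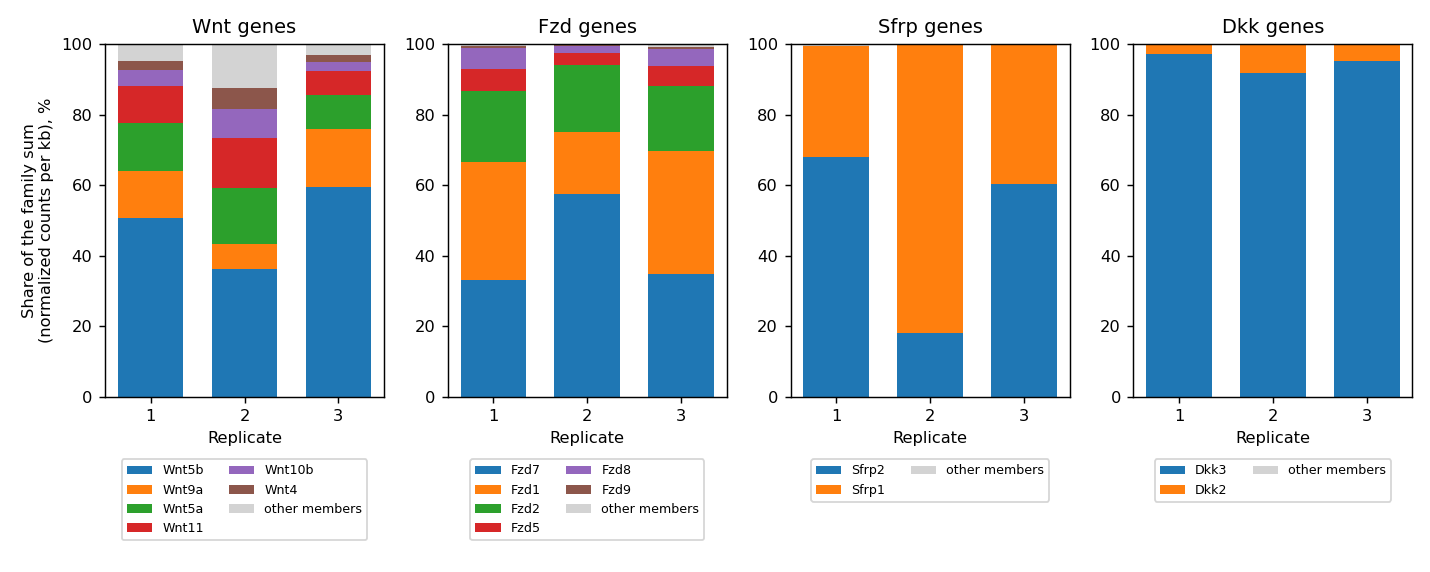
Share of each family's summed level (normalized counts per kb of exonic length, vertical axis in %) held by its leading members in replicates 1, 2 and 3. Grey marks the remaining members, and the Sfrp panel shows Sfrp2 at 68.0%, 17.9% and 60.4%, with Sfrp1 taking most of the rest.

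Of the Sfrp and Dkk genes, the highest was Dkk3, the divergent member of the Dickkopf family, whose action on Wnt signals was not tested. Dkk3 (chromosome 7, 112116017 to 112159057, minus strand) had 8867, 9293 and 8546 normalized counts, averaging 8902 ± 375 (SD, n = 3). Its highest library was 1.09-fold above the lowest, and its SD of 0.06 on the log2 scale was the smallest of the 16 detected members. Per kb, Dkk3 had 2650.2 ± 111.6 (SD, n = 3), and in each library this exceeded the sums of the Wnt, Fzd and Sfrp families. Without Dkk3, the Sfrp and Dkk genes summed to 322, 381 and 324 per kb in replicates 1, 2 and 3. These sums lay below the Wnt sums of 767, 450.2 and 661. Dkk3 made up 97.1%, 91.8% and 95.2% of the Dkk sum. Dkk2, which acts on LRP6, was the other Dkk gene detected, with 290.9, 914 and 480.0 normalized counts. Dkk2 was highest in replicate 2, 3.14-fold above replicate 1 and 1.90-fold above replicate 3. By contrast Dkk1, the best studied LRP6 antagonist and itself a known Wnt target, had 0, 3 and 0 reads.

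Sfrp1 and Sfrp2, related antagonists that bind Wnt ligands, were ordered differently across the libraries. Sfrp1 had 336, 478 and 334 normalized counts, averaging 383 ± 82.7 (SD, n = 3). Sfrp2 (chromosome 3, 83766321 to 83774316, plus strand) had 357, 51.4 and 252 normalized counts. Consequently Sfrp2 was the higher of the pair per kb in replicates 1 and 3, and Sfrp1 in replicate 2, where it held 82.0% of the Sfrp sum. That sum was 244, 133.5 and 194 normalized counts per kb in replicates 1, 2 and 3. An antisense gene, Gm26771, overlaps 16.1% of the exonic bases of Sfrp2, and the strand setting of the counting was not given in the sources used here. Its row held 0, 2 and 2 reads. Sfrp4 had at most 6 reads, and Frzb, also called Sfrp3 but outside the name rule, had 59.0, 64.1 and 33.2 normalized counts.

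To find members for which 1 library differed from both others, a gene was called apart where that library differed from each of them by over 2-fold in the same direction and both exact binomial tests passed. The tests were two-sided and Benjamini-Hochberg adjusted at 0.05 over the 13154 genes whose mean reached 10, which included 24 members. They compare libraries of 1 condition by their reads and not conditions. In replicate 2, 3 members were above both others, Wnt2, Wnt16 and Fzd7, which is 12.5% of the members tested beside 5.24% of all genes. Wnt2 passed the minimum only through replicate 2, its mean over the other libraries being 2.33, so it could be tested only because it was high there. In the same library 5 members were below both others, Wnt5b, Wnt7b, Wnt9a, Wnt10a and Sfrp2, which is 20.8% beside 4.45% of all genes. Wnt2, Wnt16, Wnt7b and Wnt10a are counted in these shares but fell below 10 normalized counts in 1 or more libraries. For them a wide spread between replicates was built in. In replicate 1 only Wnt10a was above both others, 4.17% of the members beside 2.29% of all genes, and no member was below, beside 1.53%. Wnt10a likewise reached the minimum only through replicate 1, since its mean over the other libraries was under 10. No member was apart in replicate 3, beside 1.22% of all genes above and 1.74% below. Of the 14 members with a mean of at least 100, 4 were apart in replicate 2, namely Wnt5b, Wnt9a, Fzd7 and Sfrp2, beside 6.51% of all genes at this minimum.

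The members apart in replicate 2 differed in size of change. Sfrp2 was 6.94-fold lower than in replicate 1 and 4.91-fold lower than in replicate 3, and the larger adjusted p of the exact binomial tests was 3.79e-36. Wnt9a was 3.21-fold and 3.43-fold lower (larger adjusted p = 3.07e-37, exact binomial test), and Wnt5b 2.38-fold and 2.41-fold lower (larger adjusted p = 6.04e-63, exact binomial test). Fzd7 was 2.65-fold higher than in replicate 1 and 2.69-fold higher than in replicate 3 (larger adjusted p = 7.89e-274, exact binomial test). Wnt16 was 9.25-fold higher than in replicate 1 and 27.1-fold higher than in replicate 3. Wnt2 was 7.91-fold higher than in replicate 1, and its ratio of 23.2 to replicate 3 (95% exact interval 3.92 to 939) rested on 1 read there. Replicates 1 and 3 exceeded replicate 2 for Wnt10a, with 2 reads in replicate 2, by ratios of 29.0 (95% exact interval 7.58 to 246) and 11.8 (2.70 to 106.7). Wnt7b was 4.05-fold lower than in replicate 1 and 7.45-fold lower than in replicate 3 (larger adjusted p = 0.00131, exact binomial test). Fzd4, with 1.74, 19.7 and 9.48 normalized counts, was not called, since replicates 2 and 3 did not pass the exact binomial test (adjusted p = 0.116). Dkk2 missed the fold limit against replicate 3, and Fzd8, 2.06-fold below replicate 1, was 1.57-fold below replicate 3.

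**Figure D3:**
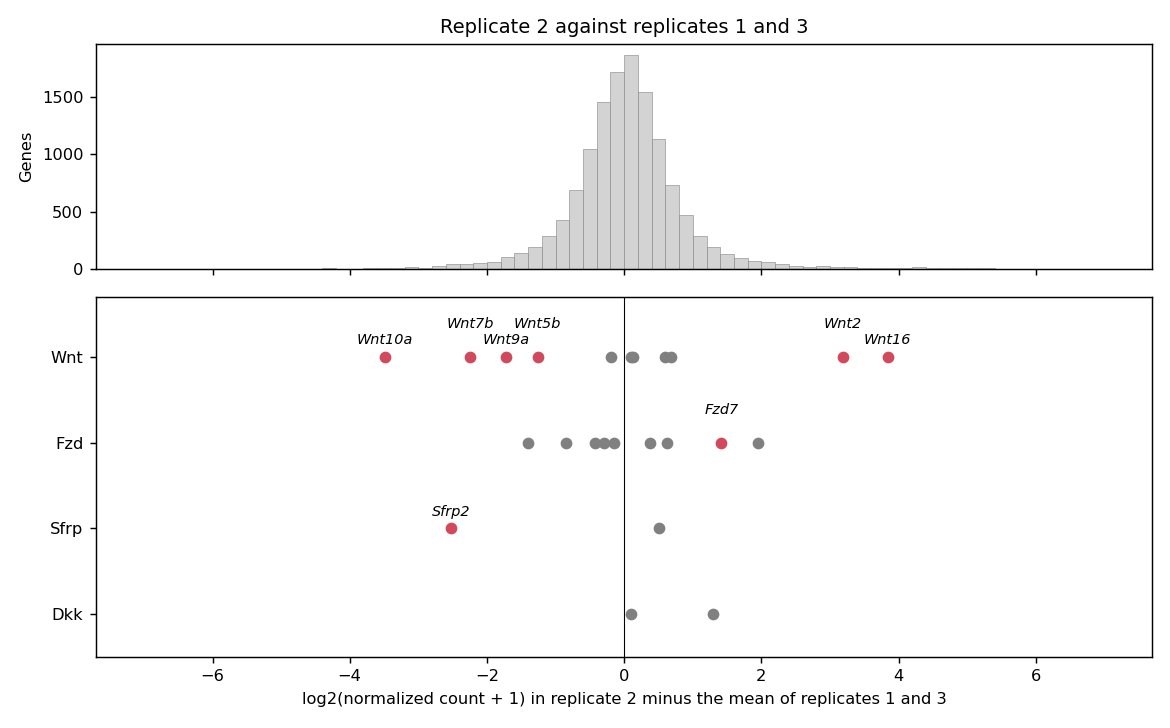
Difference between replicate 2 and the mean of replicates 1 and 3 in log2(normalized count + 1), over the 13154 genes tested (upper histogram) and for the 24 members by family (lower points). Red, labelled points are the 8 members called apart in replicate 2, and the Wnt genes among them lie on both sides of 0.

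Replicates 1 and 3 were also compared with each other, a step added after the data were seen. Between replicates 1 and 3, 3 of 24 members (12.5%) differed by more than 2-fold and passed the exact binomial test, beside 8.16% of all genes. They were Wnt2b, which was 4.03-fold higher in replicate 1, Wnt10a, 2.46-fold higher, and Fzd3, 2.38-fold higher. These rested on 44 and 8 reads for Wnt2b, 47 and 14 for Wnt10a and 39 and 12 for Fzd3. The median SD between replicates of log2(normalized count + 1) over the 16 detected members was 0.50, beside 0.30 over all 12204 detected genes. Over replicates 1 and 3 alone the members had 0.24, and the value for all genes was not computed. Replicate 2 was the library most often apart, so a lower spread without it was in part built in. A range of more than 2-fold was found in 8 of the 16 members (50%), beside 22.0% of all detected genes. In the tendon and cartilage list, Col2a1 (11538, 229 and 833 normalized counts), Scx (2470.4, 168 and 1381), Comp (2900.3, 387 and 3082) and Acan (4.34, 0 and 36.7) were lowest in replicate 2. Tnmd (124, 127 and 107 normalized counts) was highest there and Sox9 (171, 149 and 117) was lowest in replicate 3. The list's part in the levels of Wnt5b, Wnt9a and Sfrp2 was not tested. Of the 5 endothelial markers only Tek was highest in replicate 2, with 6.95, 185 and 2.37 normalized counts. Pecam1 (9.55, 3.52 and 2.37 normalized counts), Kdr (4.34, 1.41 and 0) and Egfl7 (69.5, 53.6 and 49.8) were highest in replicate 1, and Cdh5 had at most 1.19.

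Promoter windows from RefSeq (GRCm38.p6), of 250 bases before and 50 bases after the start, were matched by symbol to 25 members, of which 10 were detected. Where a gene had more than 1 start, as Wnt5b with 3 and Wnt11 with 2, only the start nearest the annotated 5′ end was used. Windows at the other starts were not searched. For 6 of the 8 members apart in replicate 2 a window is shown, so that the low and the high genes can be read side by side. Low in replicate 2 were Wnt5b (chr6:119544298-119544597, minus strand), Wnt9a (chr11:59306680-59306979, plus strand) and Sfrp2 (chr3:83766071-83766370, plus strand). High in replicate 2 were Fzd7 (chr1:59481897-59482196, plus strand), Wnt16 (chr6:22287977-22288276, plus strand) and Wnt2 (chr6:18030396-18030695, minus strand). Each is written 5′ to 3′ on the gene's strand, and capitals mark a match to one of the motifs described after them.
Wnt5b: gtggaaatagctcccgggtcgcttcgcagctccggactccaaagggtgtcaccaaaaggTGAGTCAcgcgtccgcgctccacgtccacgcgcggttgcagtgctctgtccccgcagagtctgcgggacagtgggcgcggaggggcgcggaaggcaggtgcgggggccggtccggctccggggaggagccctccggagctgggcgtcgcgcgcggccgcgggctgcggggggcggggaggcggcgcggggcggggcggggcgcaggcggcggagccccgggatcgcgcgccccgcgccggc
Wnt9a: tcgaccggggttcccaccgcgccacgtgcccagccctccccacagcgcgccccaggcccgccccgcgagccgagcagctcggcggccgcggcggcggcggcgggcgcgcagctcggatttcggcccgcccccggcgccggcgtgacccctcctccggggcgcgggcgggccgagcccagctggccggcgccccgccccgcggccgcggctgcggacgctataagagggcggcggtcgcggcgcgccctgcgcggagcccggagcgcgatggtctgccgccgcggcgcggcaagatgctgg
Sfrp2: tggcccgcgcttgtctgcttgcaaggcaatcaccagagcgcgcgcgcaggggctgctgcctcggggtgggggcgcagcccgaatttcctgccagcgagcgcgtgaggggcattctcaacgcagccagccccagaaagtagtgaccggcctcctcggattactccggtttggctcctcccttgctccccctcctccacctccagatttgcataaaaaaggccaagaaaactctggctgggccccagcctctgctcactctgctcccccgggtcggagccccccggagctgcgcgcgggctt
Fzd7: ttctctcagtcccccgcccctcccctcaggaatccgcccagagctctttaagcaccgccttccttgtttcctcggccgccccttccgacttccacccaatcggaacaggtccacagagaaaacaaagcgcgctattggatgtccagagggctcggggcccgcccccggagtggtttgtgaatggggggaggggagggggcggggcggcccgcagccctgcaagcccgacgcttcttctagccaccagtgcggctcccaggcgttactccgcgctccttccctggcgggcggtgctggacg
Wnt16: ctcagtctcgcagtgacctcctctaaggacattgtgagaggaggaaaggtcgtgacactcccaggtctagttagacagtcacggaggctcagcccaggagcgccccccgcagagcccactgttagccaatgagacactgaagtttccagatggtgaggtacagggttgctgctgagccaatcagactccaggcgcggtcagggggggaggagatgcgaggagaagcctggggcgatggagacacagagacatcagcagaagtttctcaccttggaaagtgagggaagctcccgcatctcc
Wnt2: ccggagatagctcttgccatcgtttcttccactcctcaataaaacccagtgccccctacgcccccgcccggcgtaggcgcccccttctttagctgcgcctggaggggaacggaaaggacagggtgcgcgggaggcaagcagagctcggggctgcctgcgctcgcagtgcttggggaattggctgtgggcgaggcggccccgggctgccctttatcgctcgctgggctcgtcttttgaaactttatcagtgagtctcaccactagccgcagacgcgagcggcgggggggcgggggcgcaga

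The windows were searched for the AP-1 site TGAGTCA or its reverse complement TGACTCA, because the study concerns the factor AP-1. Among the 25 member windows Wnt5b had 1 match, TGAGTCA starting 191 bases before the start, and none of the others had any, beside 5.15% of the windows of 27025 genes. The CRE form TGACGTCA was found in no member window, beside 1.87% of all. Letters bound by TCF/LEF factors (CTTTGAT, in reverse ATCAAAG, as well as CTTTGAA, in reverse TTCAAAG) were found in Wnt11 and Dkk1, 2 of 25, beside 8.73% of all windows. A TATAAA on the gene's strand was present in Wnt11, Fzd1, Dkk1 and Dkk2, beside 8.90% of all windows. Split by detection, TATAAA was in 30% of the 10 detected members, beside 4.18% of all detected genes. It was in 6.67% of the 15 others, beside 12.7% of all genes not detected. The AP-1 site and the TCF/LEF letters were each in 10% of detected members, beside 3.44% and 5.57% of all detected genes. Among the 15 others they were in 0% and 6.67%, beside 5.69% and 10.3%. These shares rest on few windows and were not tested. The member windows were rich in G and C, with a median of 69.0% for the 10 detected members and 71.7% for the 15 others, beside 61.3% for all detected genes, 49.7% for all genes not detected and 52.7% over all genes. They held a median of 31 and 29 CpG dinucleotides, beside 22 in all detected genes and 4 in all genes not detected. A match describes letters only, and binding was not measured.

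Some Wnt genes lie next to each other. Their means are given here as description, without scaling to length, and were not set beside those of other neighbouring genes. Wnt9a and Wnt3a are 16.2 kb apart on chromosome 11, with means of 269.3 normalized counts and no reads. Wnt10b and Wnt1, 11.7 kb apart on chromosome 15, had means of 101.8 and 1.03. For Wnt10a and Wnt6, 6.19 kb apart on chromosome 1, the means were 19.6 and 1.97, and Wnt3 and Wnt9b, 24.3 kb apart on chromosome 11, had no reads. Few reads could be shared with other genes, since at most 4.33% of the 50-base stretches of any member transcript occur elsewhere, apart from Fzd5, Sfrp2 and Wnt11. For these 3 genes 16.4%, 12.0% and 7.46% of the stretches are shared, with the overlapping genes Gm38058, Gm26771 and Gm8398.

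Other genes of the pathway were read from a list of 67 genes in 7 roles, of which 52 were detected and 58 had a mean of at least 10. In replicate 2, 7 of the 58 genes (12.1%) were above both other libraries and 3 (5.17%) below, beside the 5.24% and 4.45% of all genes given above. Replicate 1 was above both others for 2 genes (3.45%, beside 2.29% of all genes) and below for 2 (3.45%, beside 1.53%). Replicate 3 was below for 2 (3.45%, beside 1.74%). Lgr5, Bcl9l and Dact1 were each called in 2 libraries, so these calls cover 13 genes. Of the 10 genes called in replicate 2, 5 belonged to the R-spondin arm, 2 to the nuclear factors and 3 to the planar polarity genes.

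Genes for ligand secretion and co-receptors were all detected, 8 of 8, beside 54% of protein-coding rows. None of them was apart in any library, beside 1975 of 13154 of all genes, and 8 genes are too few to call this role more stable. Wls, the carrier that brings Wnt ligands to the cell surface, had 4660.4, 5552 and 5471 normalized counts, and the receptor gene Ryk had 7335, 6907 and 6187. In the R-spondin arm, the Rspo and Lgr genes strengthen Wnt signals by protecting Frizzled receptors from removal. This role had the highest median SD of the 7 roles, 0.94 for log2(normalized count + 1) over its 5 detected genes. Of its 7 genes tested, 5 were apart in replicate 2, beside 9.69% of all genes. Lgr4, a receptor for R-spondins, had 538, 2013 and 472 normalized counts. Its relative Lgr6 had 442, 99.3 and 634, and Lgr5 had 34.7, 4.93 and 15.4, so that the 3 receptors did not share a direction. The ligand genes were likewise split, Rspo3 with 423, 143 and 421 normalized counts and Rspo2 with 39.1, 84.6 and 22.5. Replicate 2 was thus the highest library for Lgr4 and Rspo2 and the lowest for Lgr5, Lgr6 and Rspo3. Lgr5 was also above both others in replicate 1, 14.3% of the 7 genes tested beside 2.29% of all genes.

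**Figure D4:**
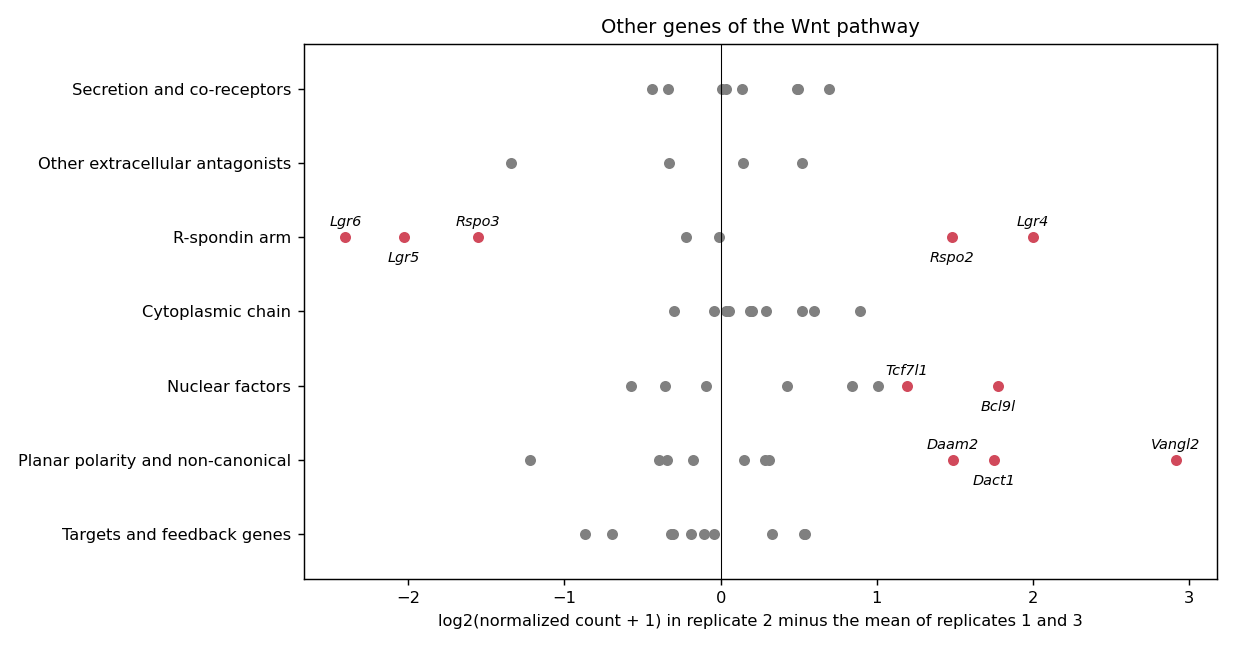
Difference between replicate 2 and the mean of replicates 1 and 3 in log2(normalized count + 1) for the 58 pathway genes with a mean of at least 10, by role. Red, labelled points are the 10 genes called apart in replicate 2, and none lies in the rows of co-receptors, other antagonists, cytoplasmic chain or target genes.

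The cytoplasmic chain, which controls β-catenin turnover, was detected in full, 11 of 11 genes, beside 54% of protein-coding rows. Ctnnb1, which encodes β-catenin, had 10797, 12281 and 10631 normalized counts, and the kinase gene Csnk1d had 4024, 4214 and 4211. Only Dvl3, which relays the signal from Frizzled, was apart there, lower in replicate 1 with 180.6, 493 and 389.95 normalized counts. That is 9.09% of the 11 genes, beside 1.53% of all genes below in replicate 1. Among the nuclear factors, Tcf7l1 (212, 481 and 207 normalized counts) and the β-catenin cofactor gene Bcl9l (248, 1220.4 and 509.7) were above both others in replicate 2. That is 25% of the 8 genes tested, beside 5.24% of all genes. Bcl9l was also below both others in replicate 1, Pygo1 was below in replicate 3 with 99.0, 71.9 and 28.4 normalized counts, and Pygo2 had 1950.3, 1313 and 1964. Lef1 had 6.08, 19.0 and 13.04 normalized counts and Tcf7 36.5, 52.1 and 22.5, so neither exceeded 52.1 in any library.

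Of the planar polarity genes, Vangl2 had 30.4, 176 and 16.6 normalized counts, Daam2 164, 438 and 147, and Dact1 50.4, 109.9 and 20.1. All 3 were above both others in replicate 2, which is 30% of the 10 genes tested beside 5.24% of all genes. Over these 10 genes, replicate 2 was the highest library for 5 and the lowest for 4. Dact1 was also below both others in replicate 3, 10% of the genes tested beside 1.74% of all genes. Daam1, with 1298, 1083 and 1459 normalized counts, and Dact3, with 416, 503 and 395, were not apart.

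Of the target and feedback genes 8 of 11 were detected (72.7%), beside 54% of protein-coding rows. None of the 10 tested was apart in any library, beside 1975 of 13154 of all genes, and 10 genes are too few to call this list more stable. Axin2, a feedback inhibitor widely used as a readout of β-catenin signalling, had 26.9, 9.86 and 13.04 normalized counts, from 31, 14 and 11 reads. Nkd1 had 14.8, 14.1 and 5.93 normalized counts, whereas the related Nkd2 had 494, 303 and 489.5. The highest of this list per kb were Wisp2, with 15326, 14200.0 and 20483 normalized counts, and Cd44, with 40677, 36683 and 50478. Of the other extracellular antagonists, Kremen1, a receptor for Dkk proteins, had 1505, 1451 and 2207 normalized counts. Notum, which encodes an enzyme that removes the lipid from Wnt ligands, was above both others in replicate 1, with 26.9, 2.82 and 2.37 normalized counts, and it reached the minimum for testing only through that library. Sost and Sostdc1 had no reads.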

How the data were processed

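RNA-seq was available for 3 replicates of MG-treated, PD0325901-treated wounded fibroblasts. The authors filtered adapters, aligned 50-base single-end reads to mm10 with TopHat2 2.0.13, counted reads per gene with HTSeq 0.5.3p3 and normalized with DESeq (tools and versions per the labels and the methods). The library kit was stranded, but which annotation and strand option the counting used is not given in the sources used here. The deposited signal is normalized counts, reads divided by 1 size factor per library, and 3 other columns that match no sample here stayed out of every step. Whole reads were recovered by division (100% of values within 0.01 of a whole number), with totals of 22540518, 27037783 and 17244505 and size factors of 1.15, 1.42 and 0.844. With 1 condition no count test between groups was run. Among 43472 rows, 27 carry names turned into dates.

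For each pair of libraries, reads were split by the ratio of their size factors in two-sided exact binomial tests with Benjamini-Hochberg adjustment at 0.05. The step was also run on counts simulated with counting error only, which cannot show how it behaves where replicates vary further. Replicates may differ technically as well as biologically, and these p-values cover counting error only. Exonic lengths are unions of exons in GENCODE M21 (GRCm38, the same build as mm10). TMM factors came from edgeR 4.0.16 (R 4.3.3), and Python 3.11.15, numpy 2.4.6, scipy 1.17.1, pandas 2.3.3 and matplotlib 3.10.9 were used for the rest. Named were all members and, of the pathway list, genes apart in any replicate, the 2 highest per kb in each role, and Axin2, Lef1, Tcf7, Nkd1, Nkd2 and Lgr5. Sost, Sostdc1, Scx and the markers were named besides. The name rule uses no values, but the gene families, and so the members, and the lists were chosen with earlier results of these data known, which holds for each share set beside all genes. Alternatives were other minimums, pseudocounts, fold limits, scalings and lengths, and each replicate left out. Leaving out replicates in the count of detected members, and comparing replicates 1 and 3 alone, were added after the data were seen.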

Additional observations from a re-analysis of the deposited data

How the results depend on the processing

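No paired analysis was possible because all libraries belong to 1 condition. The 16 members detected became 15 to 24 under the other minimums, stayed 16 with TMM scaling and were 16 to 20 with each replicate left out. The median SD over detected members ranged from 0.24 to 0.58 with a replicate left out. The 8 members apart in replicate 2 became 4 at a mean of at least 100, where fewer members are tested, and were 6 to 10 under the other settings. For replicate 1 the count of 1 member became 3 at 1.5-fold, 0 at 3-fold and 0 at a mean of at least 100. For replicate 3 the count of 0 became 1 at 1.5-fold and 3 with libraries scaled to equal totals, and the cause of the latter was not tested. The limit of 3-fold lowered the pathway genes apart by construction, to 1 in replicate 1, 4 in replicate 2 and 0 in replicate 3, and 1.5-fold raised those in replicate 3 to 5. Of the 16 detected members 8 kept their rank per kb in replicate 2 by itself, against 12 in replicate 1, 14 in replicate 3 and 14 with the longest transcript as length. Family sums per kb moved by less than 1 SD with TMM scaling and with the longest transcript as length, and leaving out a replicate cannot move a mean of 3 values that far. The means of the 30 members with reads also moved by less than 1 SD under TMM scaling. Depth limits the genes with few reads, such as Wnt2 with 1 read in replicate 3.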
